A study of Drosophila melanogaster with 31 samples.

Results

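Mitochondrial ribosomal protein genes code in the nucleus for the proteins of the mitochondrion's own ribosome. The proteins are made in the cytoplasm, imported, and assembled on ribosomal RNA copied from mitochondrial DNA into a large subunit, which joins amino acids, and a small subunit, which reads the messenger RNA. In animals this ribosome makes the few subunits of the oxidative phosphorylation complexes that mitochondrial DNA encodes, and a cell therefore needs it in order to build a complete respiratory chain. Part of its proteins have counterparts in bacterial ribosomes and carry their numbers, and the others belong to the mitochondrial ribosome.

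The genes described here are all those whose probe set on the Affymetrix *Drosophila* 2.0 array carries a single gene symbol beginning with *mRpL* or *mRpS*. They number 69, of which 44 are named for the large subunit (*mRpL*) and 25 for the small subunit (*mRpS*). The subunit was taken from the symbol alone. The 69 genes were read by 71 of the 18769 non-control probe sets. *mRpL47* and *mRpS11* had a further probe set each, and for these genes the one with the higher mean over all arrays was used. A further 2 probe sets name *mRpS10* or *mRpL53* beside another gene and were not used. The genes were compared in sorted *Drosophila* embryo cells on 31 arrays in 8 groups.

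Embryos carried GFP under a regulatory fragment from upstream of *atonal* (*ato*), the proneural gene of the chordotonal (Ch) organs, which are stretch receptors. A single transgenic line, *ato*GFP.7 in a *w118* background, was used, and the fraction sorted as GFP+ held whichever cells that fragment labels. Wild-type embryos were dissociated at 5.75 to 6.75 h (t1), 6.75 to 7.75 h (t2) and 7.75 to 8.75 h (t3) after egg laying, and *ato*GFP.7; *ato*(mutant); *w118* embryos at t1 only. Both *ato*GFP+ cells and the remaining *ato*GFP− cells were collected in each sorting run, with 4 arrays in each group and 3 for GFP− cells at t3. A wild-type sort typically held 300000 GFP+ cells. A mutant sort typically held 15000 to 75000 GFP+ cells.

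The sort itself was read from *ato*, whose level was 12.2 to 12.4 on the log2 scale on the GFP+ arrays of wild-type t1 and 8.58 to 8.81 on the GFP− arrays. The *ato* transcript was still read in mutant GFP+ cells, at 11.1 to 11.9, so its level does not check the genotype. At t3 it had dropped to 7.77 to 8.56 in GFP+ cells. Replicate 3 of t3 stood apart in both fractions. Its GFP+ array had the lowest *ato* value of that group, the highest summed level of 5 mesoderm markers (3111, against 1323 to 1772 on the other GFP+ arrays), and its GFP− array the highest *ato* value among the GFP− arrays (6.94). Results at t3 are therefore also given without it. The GFP+ array of replicate 4 at t3, with no GFP− array of its number, had the highest *ato* value of its group (8.56). In a fit with array weights it weighed 0.43, and the replicate 3 arrays 0.42 (GFP+) and 0.46 (GFP−). A GFP− array of t2 (replicate 4) is called GFP− in its title and GFP+ in its source name, and was used as GFP−.

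All 69 genes were well expressed. Their means over the arrays ran from 7.35 to 11.004 on the log2 scale, around a median of 9.09, where the median of all probe sets on an array was 4.71 to 4.83. The lowest group mean of any of them was 6.69, so every group mean of all 69 lay at or above the log2 value of 6 used as a limit for dim probe sets, which 7963 probe sets reached in at least 1 group. The median SD between replicates was 0.13 for these genes and 0.14 for those 7963 bright probe sets. Levels of different genes are not set against each other, since each probe set has its own brightness.

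**Figure D1:**
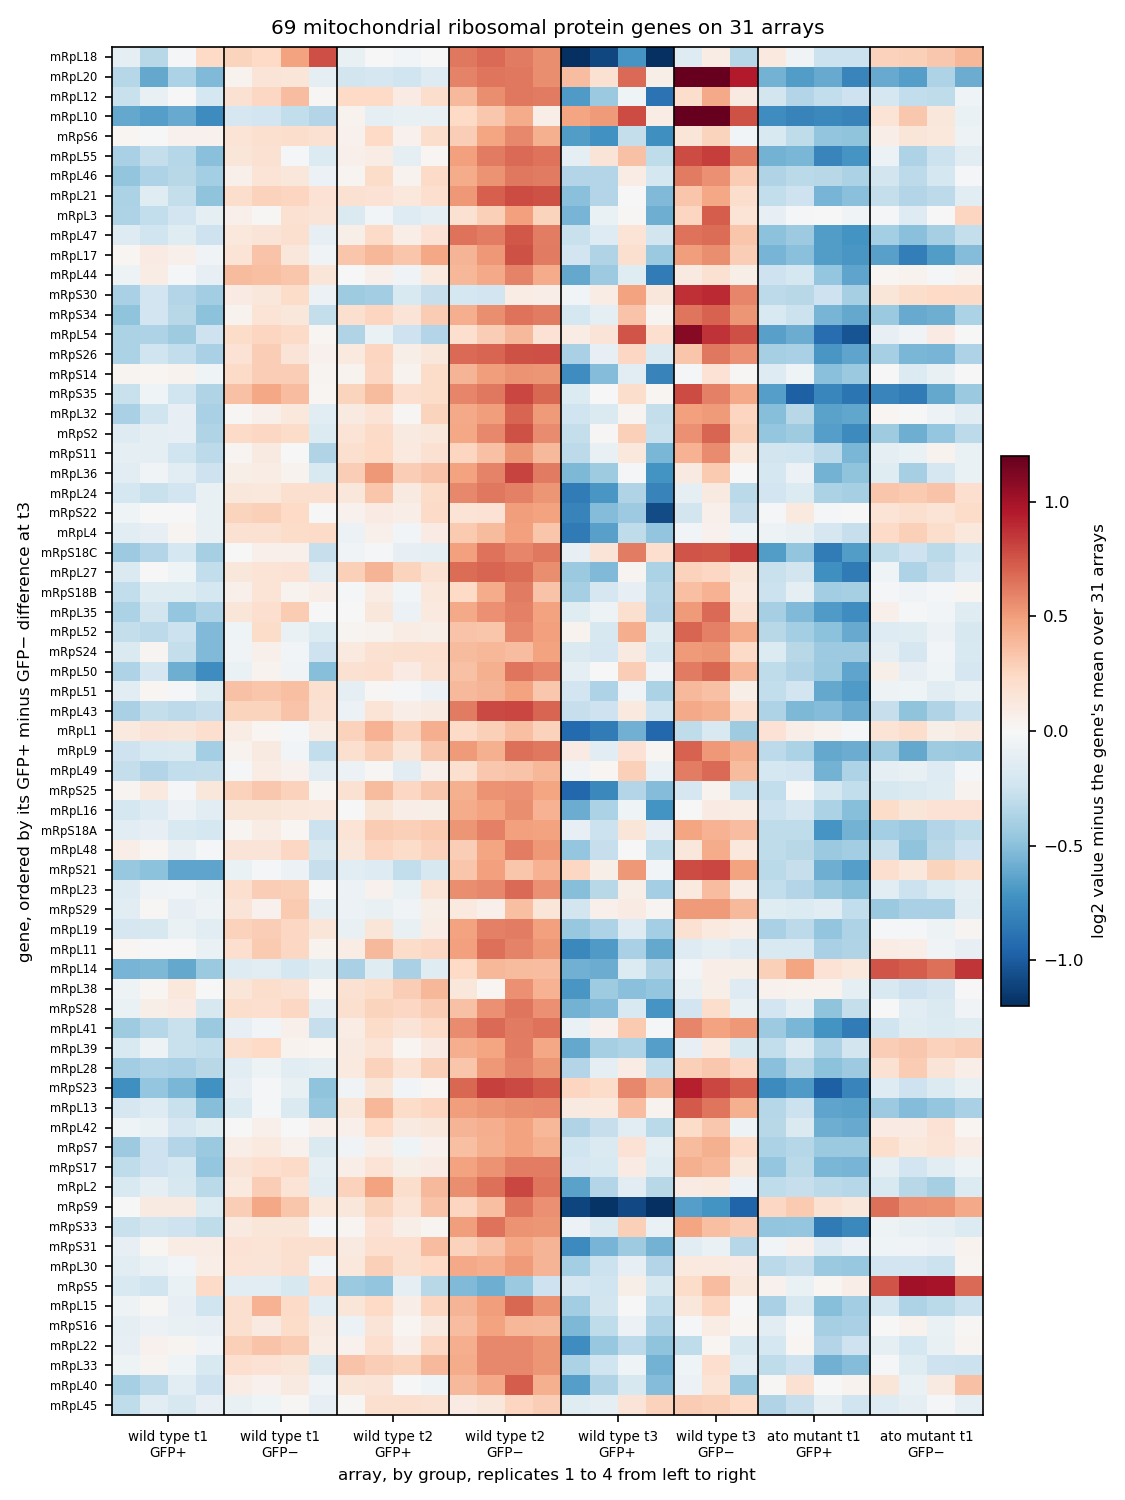
Each row is 1 of the 69 genes and each column 1 of the 31 arrays, grouped by genotype, age and fraction. Colour gives the log2 value minus that gene's mean over the arrays, with the scale ending at 1.2 on either side. In each wild-type age the GFP+ columns are bluer than the GFP− columns for nearly every gene, and the t2 columns are redder than those of t1 and t3 for most genes.

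In wild-type embryos, mitochondrial ribosomal protein genes were read at a lower level in *ato*GFP+ cells than in the rest of the embryo at all 3 ages. The shift was small for each gene and shared by nearly all of them. The median log2 difference over the 69 genes, GFP+ minus GFP−, was -0.29 at t1, -0.37 at t2 and -0.52 at t3, while the median over all probe sets was 0.02, 0.02 and 0.01. The difference was below 0 for 68, 67 and 69 of the 69 genes in the order of age, and for 67 of them at each of the 3 ages, as were 19.5% of all probe sets and 32.8% of the bright ones. The exceptions were *mRpL1* and *mRpS5*. In sorted fractions, fewer cells of a type and less RNA per cell cannot be told apart.

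The median of the 69 genes on each array shows the same separation. At t1 the GFP+ arrays read 8.83, 8.96, 8.91 and 8.83 and the GFP− arrays 9.18, 9.23, 9.19 and 9.01. At t2 they read 9.12 to 9.33 against 9.48 to 9.68. At t3 they read 8.62, 8.74, 9.05 and 8.71 against 9.33, 9.43 and 9.17. No GFP+ array reached a GFP− array of its age. The highest GFP+ and the lowest GFP− arrays lay closest at t1, where they were replicate 2 (8.96) and replicate 4 (9.01), and at t3 they were both replicate 3.

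**Figure D2:**
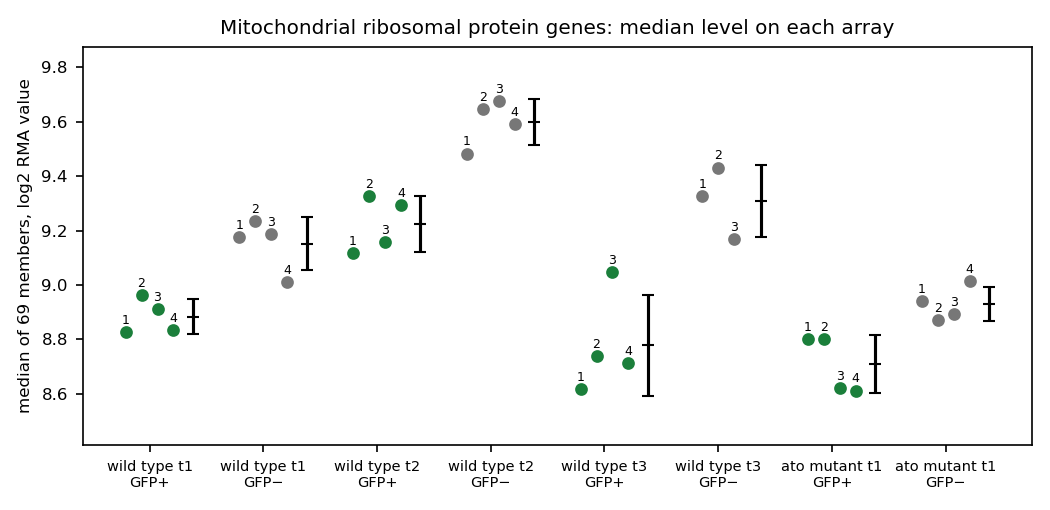
Median log2 level of the 69 genes on each array (points, numbered by replicate; green GFP+, grey GFP−), with the mean ± SD of each group beside them. Every GFP+ array lies below every GFP− array of the same age and genotype, and both wild-type fractions are highest at t2.

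A gene was called where its fold difference was at least 1.5 and its adjusted p at most 0.01 (limma, Benjamini-Hochberg over all 18769 probe sets). At t1 no gene was called in either direction, where 3.61% of all probe sets were called lower and 2% higher. Without the fold limit 23 of the 69 were lower (6.54% of all probe sets were lower by that rule, and 14.2% of the bright ones). The t1 differences were thus short of 1.5-fold for each of the 69 genes. The largest was that of *mRpL43*, a large subunit protein of the mitochondrial series, which read 8.58, 8.69, 8.65 and 8.69 on the GFP+ arrays and 9.24, 9.23, 9.32 and 9.15 on the GFP− arrays, a difference of -0.58 (SE 0.08) with no overlap. At the other end *mRpL1*, the counterpart of the bacterial protein of the mobile stalk beside the exit site for transfer RNA, read 10.28 to 10.36 in GFP+ cells and 10.14 to 10.26 in GFP− cells, a difference of 0.11 (SE 0.07) that was not called.

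At t2, 9 of the 69 genes were called lower in GFP+ cells and none higher (4.2% and 2.54% of all probe sets). Without the fold limit 42 were lower (7.83% of all probe sets, 17.1% of the bright ones). *mRpL20*, whose bacterial counterpart is needed early in the assembly of the large subunit, read 7.13, 7.15, 7.11 and 7.19 in GFP+ cells and 7.95, 7.99, 7.98 and 7.91 in GFP− cells. The groups were well apart, and the level in GFP+ cells was 1.76-fold lower (log2 difference -0.81, SE 0.10, limma adjusted p = 2.3e-07). *mRpS23*, of the small subunit's mitochondrial series, was 1.66-fold lower, at 8.31 to 8.50 against 9.04 to 9.17. *mRpL43* and *mRpS18C*, whose product corresponds to bacterial S18, were each 1.58-fold lower. *mRpL18*, *mRpL14*, *mRpL55*, *mRpS21* and *mRpS26* made up the 9, at 1.50- to 1.58-fold.

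At t3, 19 were called lower and none higher (3.22% and 2.25% of all probe sets). Without the fold limit 63 of the 69 were lower, where 7.22% of all probe sets and 15.4% of the bright ones were. *mRpL18*, whose bacterial counterpart binds the smallest ribosomal RNA, read 7.05, 7.24, 7.64 and 7.07 in GFP+ cells and 8.19, 8.43 and 7.999 in GFP− cells. It was the member with the largest difference, at 1.94-fold lower (-0.95, SE 0.13, limma adjusted p = 5.0e-06), and its groups did not overlap. *mRpL20* read 7.72, 7.53, 8.03 and 7.42 against 8.76, 8.59 and 8.30, which is 1.83-fold lower.

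Both genes of the stalk were among those called at t3. *mRpL12* and *mRpL10* correspond to the bacterial stalk proteins that bring translation factors to the ribosome. *mRpL12* read 8.41, 8.64, 9.04 and 8.20 in GFP+ cells and 9.30, 9.55 and 9.19 in GFP− cells, 1.71-fold lower with no overlap. *mRpL10* was 1.66-fold lower, at 8.08, 8.11, 8.39 and 7.69 against 8.94, 9.11 and 8.37, and here the GFP+ array of replicate 3 lay above the GFP− array of replicate 3. *mRpS6*, whose bacterial counterpart sits on the platform of the small subunit, was 1.66-fold lower at 7.58, 7.52, 7.97 and 7.51 against 8.40, 8.52 and 8.22. The remaining genes called were lower by 1.50- to 1.65-fold, among them *mRpL55*, *mRpL46*, *mRpL21*, *mRpL3*, *mRpL44*, *mRpS26* and *mRpS30*.

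The number called at t3 rested on the spread taken from all 8 groups and on replicate 3. With a spread estimated from the t3 arrays alone, 0 of the 69 were called, and without the GFP+ array of replicate 3 the counts were 40 with all groups and 32 with the t3 arrays alone. Leaving out the GFP− array of replicate 3 gave 33, while leaving out the GFP+ array of replicate 1 or the GFP− array of replicate 2 gave 12, and the replicate number as a block gave 14. Leaving out the replicate 3 arrays of both fractions, an alternative chosen after seeing the data, gave 47 and a median difference of -0.67. The median was below 0 in each of these.

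**Figure D3:**
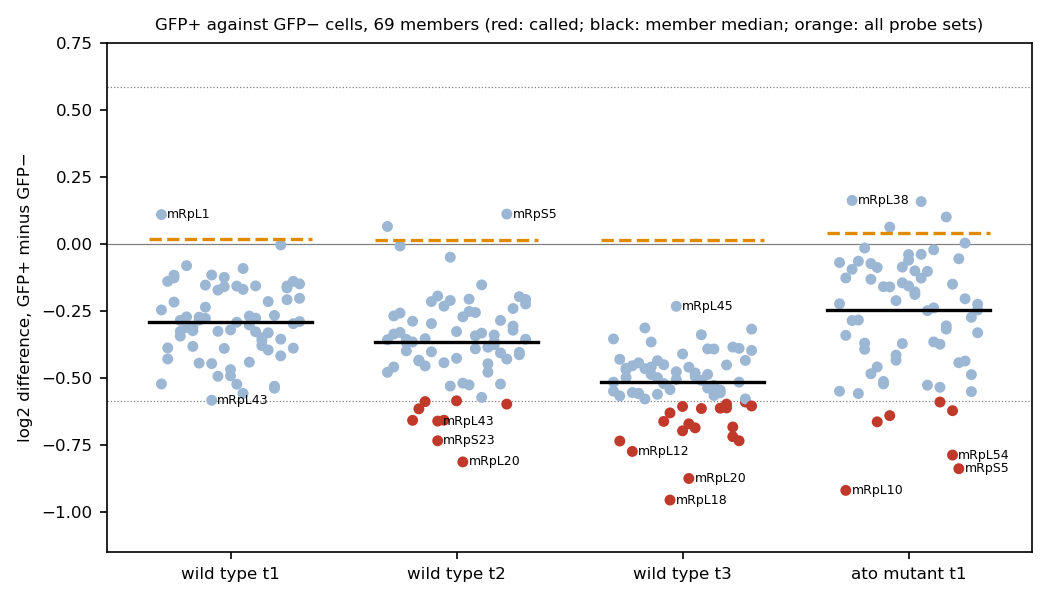
Log2 difference between GFP+ and GFP− cells for each of the 69 genes (points) at t1, t2 and t3 in the wild type and at t1 in the *ato* mutant. Black lines give the median of the 69, orange lines that of all probe sets, dotted lines a 1.5-fold difference, and red points the 0, 9, 19 and 7 genes called. The cloud moves down from t1 to t3 and reaches 0 or above for single genes only at t1, t2 and in the mutant.

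The ages shared part of their genes. *mRpL18*, *mRpL20*, *mRpL55* and *mRpS26* were called at both t2 and t3, 15 genes were called at t3 alone, and 24 were called at any age. The shares of all probe sets were not computed for these joint counts, which therefore only list the genes. Complete separation of the arrays, with each GFP+ array below each GFP− array, was found for 41, 58 and 62 genes in the order of age (10.6%, 12.4% and 9.12% of all probe sets). For 33 genes this held at each of the 3 ages, as for 3.47% of all probe sets and 7.84% of the bright ones. Across the 69 genes the differences at t1 and t2, which share no array, had a Spearman correlation of 0.80, those at t1 and t3 0.39, and those at t2 and t3 0.28. Over all probe sets the values were 0.59, 0.41 and 0.39. Genes are not independent replicates, and these values describe the order of the genes only.

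The lower level was shared by the genes named for either subunit. At t3 the median was -0.52 for the 44 *mRpL* genes, 13 of them called, and -0.51 for the 25 *mRpS* genes, 6 of them called. It was -0.30 and -0.29 at t1 and -0.38 and -0.34 at t2. The 40 genes with a number of the bacterial series and the 29 with a number of the mitochondrial series had t3 medians of -0.52 each, with 10 and 9 called. The second probe set of *mRpL47* read -0.81 at t3 and was called lower as the first was, at -0.67. That of *mRpS11* read -0.47 and was not called.

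The gap between fractions widened with age. The difference at t3 minus that at t1 was below 0 for 67 of the 69 genes, the exceptions being *mRpL40* and *mRpL43*, and for 51.2% of all probe sets. Its median was -0.23, against -0.01 over all probe sets. Measured gene by gene the change was mostly within error: 1 gene was called, lower (1.54% of all probe sets were, and 2.02% higher), and 2 passed without the fold limit (1.81%). That gene was *mRpL1*, which read 10.44, 10.59, 10.44 and 10.60 in GFP+ cells at t2 and 9.23, 9.33, 9.59 and 9.22 at t3, while GFP− cells read 10.40 to 10.53 and then 9.86, 9.99 and 9.74. The GFP+ arrays were above or level with the GFP− arrays up to t2 and all below them at t3. The change of its difference from t1 to t3 was -0.62 (SE 0.10, limma adjusted p = 0.00010). It was not called without the GFP+ array of replicate 4 at t3 (-0.58) or the GFP− array of replicate 2 at t3 (-0.56), nor with the replicate number as a block (-0.58), each just short of 1.5-fold. With both arrays of replicate 3 at t3 left out, 9 genes were called.

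**Figure D4:**
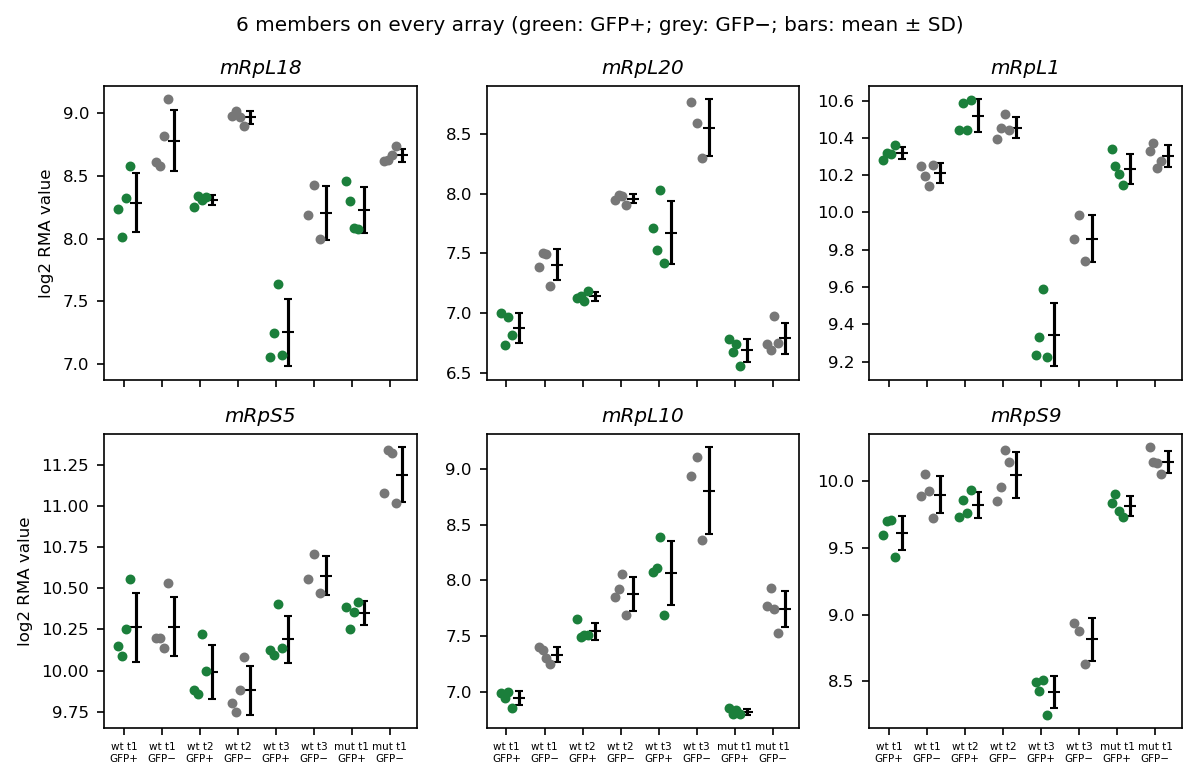
Log2 values of 6 of the genes on every array (green GFP+, grey GFP−), with the mean ± SD of each group. *mRpL18* and *mRpL20* are lower in GFP+ cells at each wild-type age, *mRpL1* only at t3, and *mRpS5* stands out in the GFP− cells of the *ato* mutant. *mRpL10* rises with age in both fractions, and *mRpS9* is lower at t3 than at t1 and t2 in both.

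The *ato* mutant was sorted with the same reporter to see what the GFP+ cells lose without a functional *ato* gene. Here 7 of the 69 genes were called lower in GFP+ cells and none higher (6.12% and 4.65% of all probe sets), and 29 were lower without the fold limit (10.2%, and 21.6% of the bright probe sets). The median difference was -0.25, against 0.04 over all probe sets, and 64 genes were below 0. For 37 genes each GFP+ array lay below each GFP− array (13.3% of all probe sets). Array medians were 8.80, 8.80, 8.62 and 8.61 in GFP+ cells and 8.94, 8.87, 8.89 and 9.01 in GFP− cells. *mRpL10* had the largest difference, with 6.86, 6.81, 6.83 and 6.80 against 7.77, 7.93, 7.74 and 7.53, or 1.89-fold lower. *mRpS5* was 1.79-fold and *mRpL54* 1.73-fold lower, and *mRpS21*, *mRpS23*, *mRpL28* and *mRpL24* were lower by 1.50- to 1.58-fold.

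This count moved with the scaling. When each array was centred on its cytoplasmic ribosomal protein genes, the median of all probe sets shifted from 0.04 to 0.31 in this comparison, 1 of the 69 genes was called lower, and 33 lay below 0. Such centring moves all probe sets of an array alike, so the distance of the 69 genes from the median of all probe sets (-0.29) is fixed by its construction. Cyclic loess gave 13 called lower. In the wild type the same centring moved all probe sets to 0.17, 0.09 and 0.10 at t1, t2 and t3, left the medians of the 69 at -0.14, -0.29 and -0.43, and lowered the calls from 9 to 3 at t2 and from 19 to 10 at t3.

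For most of these genes no change in the difference between fractions with genotype passed the test. The wild-type difference at t1 minus the mutant difference had a median of -0.00 (-0.03 over all probe sets), with 34 genes above 0. With cyclic loess the median was 0.14 (0.01 over all probe sets), with 50 above 0, and the median difference between fractions was -0.23 in the wild type and -0.32 in the mutant. The order of these depends on the scaling. As deposited there was 1 gene called, higher in the wild type (3.6% of all probe sets were), and none lower (1.83%). The gene called was *mRpS5*, whose bacterial counterpart lies where messenger RNA enters the small subunit. It read 10.15, 10.09, 10.25 and 10.56 in wild-type GFP+ cells and 10.20, 10.20, 10.14 and 10.53 in wild-type GFP− cells. In the mutant it read 10.39, 10.25, 10.35 and 10.41 in GFP+ cells and 11.08, 11.34, 11.32 and 11.02 in GFP− cells. The high group is the mutant GFP− cells, which overlapped with none of the others, and the difference of differences was 0.83 (SE 0.15, limma adjusted p = 0.00017). With centring on cytoplasmic ribosomal proteins it was 0.71, with a limma adjusted p of 0.012, and *mRpS34*, at -0.50 and not called as deposited, was called lower at -0.62.

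Within each fraction, few genes were called between wild type and mutant, and in GFP+ cells the shares were near or below those of all probe sets. Among GFP+ cells 2 genes were called higher in the wild type and 1 lower (2.32% and 2.95% of all probe sets), with a median of 0.18. Among GFP− cells 5 were higher and 2 lower (3.36% and 4.79%), with a median of 0.21. The median over all probe sets was 0.01 and 0.03. *mRpL14*, the counterpart of a bacterial protein at the face between the subunits, was lower in the wild type in both fractions. It read 8.94, 8.96, 8.89 and 9.05 in wild-type GFP+ cells against 9.79, 9.97, 9.68 and 9.62 in the mutant, and 9.35, 9.38, 9.29 and 9.35 in wild-type GFP− cells against 10.25, 10.23, 10.17 and 10.36. The genotypes did not overlap, and the folds were 1.75 and 1.88. *mRpS35* and *mRpL17* were higher in the wild type in both, by 1.51- and 1.56-fold in GFP+ cells and 1.96- and 1.76-fold in GFP− cells. In GFP− cells *mRpS35* read 8.80, 8.91, 8.82 and 8.47 against 7.66, 7.61, 7.83 and 8.01. *mRpS26*, *mRpL20* and *mRpL43* were higher in wild-type GFP− cells by 1.53- to 1.56-fold, and *mRpS5* was 1.90-fold lower. With arrays centred on cytoplasmic ribosomal proteins, which moved the median of all probe sets to -0.34 and -0.20, the counts were 0 higher and 2 lower in GFP+ cells and 2 higher and 3 lower in GFP− cells. *mRpL17* and *mRpS35* were then not called in GFP+ cells (0.29 and 0.25), and *mRpL14* stayed lower in both fractions. With cyclic loess the GFP− counts were 2 higher and 2 lower. The mutant embryos come from a separate stock, which the paper reports as repeatedly backcrossed to the original reporter line. Mutant sorts also held fewer GFP+ cells. The *ato* lesion, the number of cells sorted and any other difference between the stocks cannot be told apart.

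As deposited, the shares of these genes called from t1 to t3 in GFP+ cells were near or below those of all probe sets. In GFP− cells more of them rose and fewer fell than over all probe sets. All 69 genes are among the bright probe sets, and the shares called among bright probe sets are not given for this comparison. The order of the genes by their change was much the same in both fractions. In GFP+ cells 5 of the 69 rose and 8 fell, where 11.1% of all probe sets did each. In GFP− cells 14 rose and 1 fell, where 10.9% of all probe sets did each. The median change was -0.05 in GFP+ and 0.20 in GFP− cells, against -0.08 and -0.07 over all probe sets. The changes in the fractions, which share no array, had a Pearson correlation of 0.95 and a Spearman correlation of 0.93 across the 69 genes, and over all probe sets the values were 0.90 and 0.80. With cyclic loess the GFP+ count turned to 13 risen and 3 fallen, so the balance of directions in GFP+ cells depends on the scaling. In GFP− cells it gave 24 risen and 1 fallen. The median change of the bright probe sets moved upwards too, from -0.11 as deposited to 0.07 in GFP+ cells and from -0.12 to 0.08 in GFP− cells. That of the 69 genes moved to 0.17 and 0.45. The shares of all probe sets called with cyclic loess are not given.

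The genes that rose in both fractions were *mRpL10*, *mRpL20*, *mRpS23*, *mRpS21* and *mRpL54*. *mRpL10* rose 2.17-fold in GFP+ cells, from 6.99, 6.95, 7.00 and 6.85, and 2.77-fold in GFP− cells, from 7.41, 7.37, 7.31 and 7.25. *mRpS23* rose 1.98-fold in each fraction, from 7.62, 7.89, 7.80 and 7.62 to 8.61, 8.57, 8.93 and 8.76 in GFP+ cells. In GFP− cells a further 9 genes rose, led by *mRpS18C* and *mRpL13* at 1.76- and 1.75-fold. None of these 9 was called in GFP+ cells.

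*mRpS9*, whose bacterial counterpart reaches with its tail to the transfer RNA in the peptidyl site, fell in both fractions. It read 9.60, 9.70, 9.71 and 9.43 in GFP+ cells at t1 and 8.49, 8.42, 8.51 and 8.25 at t3, or 2.28-fold lower (log2 difference -1.19, SE 0.09). In GFP− cells it read 9.89, 10.06, 9.93 and 9.72 and then 8.94, 8.88 and 8.63, or 2.12-fold lower. At t2 it was still 9.73 to 9.94 in GFP+ cells, so the fall lay between t2 and t3. *mRpL18* fell 2.05-fold and *mRpL1* 1.97-fold in GFP+ cells, and *mRpS25*, *mRpS22*, *mRpS6*, *mRpS31* and *mRpL11* by 1.51- to 1.64-fold. None of these 7 was called in GFP− cells, where *mRpL18* read -0.57 and *mRpL1* -0.35. Of them *mRpL1* alone was called in the test of the change itself.

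**Figure D5:**
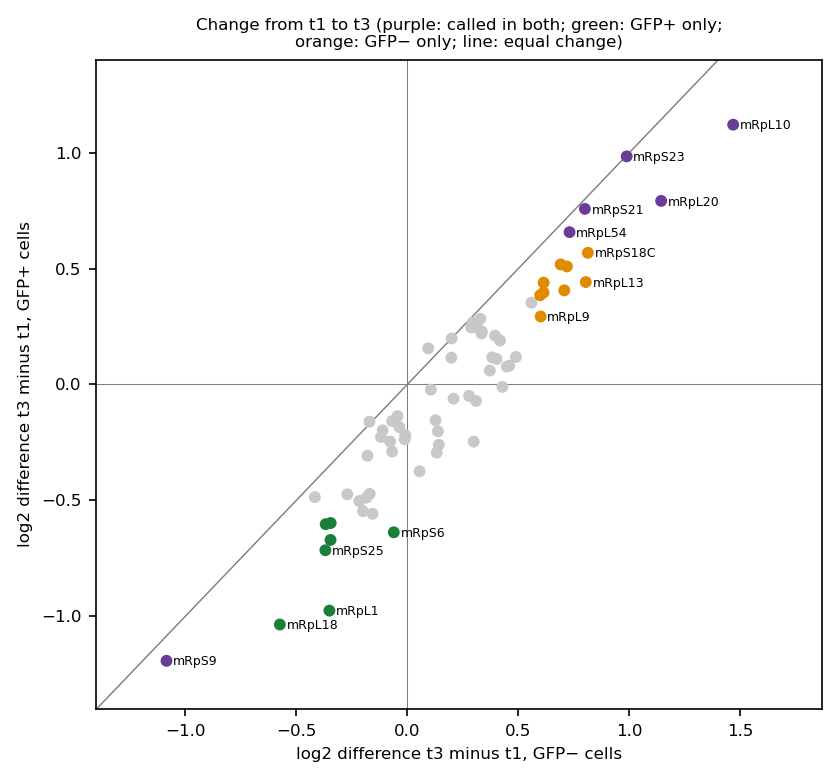
Log2 change from t1 to t3 of the 69 genes in GFP− cells (horizontal axis) and GFP+ cells (vertical axis), with the line of equal change. Purple points were called in both fractions (6 genes), green ones in GFP+ cells only (7) and orange ones in GFP− cells only (9), and 67 of the 69 points lie below the line.

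The ends of the time course leave out a peak. The mean was highest at t2 for 58 of the 69 genes in GFP+ cells and 51 in GFP− cells, and for 51 genes in both. Among all probe sets 46.4% in GFP+ and 47.7% in GFP− cells were highest at t2, and among the bright ones 30.3% and 30.2%. The median step was 0.33 from t1 to t2 and -0.34 from t2 to t3 in GFP+ cells, and 0.40 and -0.23 in GFP− cells. For all probe sets the steps were 0.04 and -0.11, and 0.05 and -0.11, and for the bright ones -0.02 and 0.00, and -0.03 and 0.02. Cytoplasmic ribosomal protein genes were highest at t2 as well. Their median on an array averaged 13.24, 13.48 and 13.32 at t1, t2 and t3 in GFP+ cells, and 13.38, 13.55 and 13.41 in GFP− cells. These are descriptions of group means as deposited. They were not tested, and the peak was not computed under the other scalings.

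*mRpL45*, related to the protein that in mammals and yeast helps to anchor the ribosome at the inner membrane, had the smallest difference at t3. It read 9.70, 9.74, 10.00 and 10.13 in GFP+ cells at t3 and 10.15, 10.14 and 10.09 in GFP− cells, and the groups overlapped. Its difference was -0.23 (SE 0.10) at t3, -0.13 at t1, -0.05 at t2 and -0.15 in the mutant, and it was not called in any of the 10 comparisons.

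Some genes of the mitochondrial ribosome are named otherwise. *tko* (technical knockout), which codes for the protein that corresponds to bacterial S12 and is known for its bang-sensitive mutant, was lower in GFP+ cells by 1.75-fold at t1 (-0.81, SE 0.09), 2.18-fold at t2 (-1.12, SE 0.09) and 1.58-fold in the mutant. At t3 its difference was -0.50, below the fold limit. Its change from t1 to t3 was 0.30 (SE 0.14, limma adjusted p = 0.23) and so opposite in sign to 67 of the 69 genes, without passing the test. *bonsai*, for the protein related to bacterial S15, read -0.16, -0.34 and -0.52 at t1, t2 and t3 and was not called.

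Other genes of mitochondrial gene expression were compared by lists. Of 9 translation factors measured, 4 were called lower at t3 and none higher, with a median of -0.48, after -0.15 at t1 and -0.08 at t2. They were *mEFTu1* (2.07-fold), which carries aminoacyl transfer RNA to the ribosome, *mRRF1* (1.68-fold), which releases the ribosome for reuse, *mEFG1* (1.61-fold), which moves it along the message, and *mEFTs* (1.58-fold), which reloads the carrier with GTP. Of 14 mitochondrial aminoacyl-tRNA synthetases, 3 were called lower at t3 (*SerRS-m*, *TrpRS-m* and *PheRS-m*). The probe sets of *SerRS-m* and *TrpRS-m* are dim, with means of 4.91 and 5.68 over the arrays, and the arrays of *SerRS-m* and *PheRS-m* overlapped between the fractions at t3. The median of the 14 was -0.12 at t1, 0.00 at t2 and -0.48 at t3. Of 11 genes of mitochondrial DNA maintenance and transcription, 4 were called lower at t3, among them *mtSSB* (1.80-fold), *PolrMT*, the mitochondrial RNA polymerase (1.77-fold), and *TFAM* (1.69-fold), which packs mitochondrial DNA. *PolrMT* was also called lower at t1 and t2.

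Import genes followed, and few respiration genes passed the fold limit. Of 12 import and chaperone genes, 1, 3 and 5 were called lower at t1, t2 and t3, with medians of -0.30, -0.36 and -0.47. *Hsp60A*, the chaperonin of the matrix, was lower by 2.55-, 2.95- and 1.80-fold. Of 29 nuclear oxidative phosphorylation genes, 2 were called at t3 and none at t1 or t2, and their medians were -0.16, -0.30 and -0.37. At t3, 19 of the 29 were lower without the fold limit.

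In the wild type, cytoplasmic ribosomal protein genes differed less between the fractions than the mitochondrial ones. The 41 cytoplasmic genes with a measured probe set had medians of -0.06, -0.10 and -0.08, with 1 lower at t1, 1 higher and 1 lower at t2, and 1 higher and 3 lower at t3. These probe sets are very bright, with array medians of 12.7 to 13.6, where the highest value on any array was 14.48. The part of this brightness in their smaller difference was not tested. In the mutant the array medians were 12.72 to 13.01 in GFP+ cells and 13.13 to 13.20 in GFP− cells, without overlap. At t2 they did not overlap either, at 13.47 to 13.50 against 13.53 to 13.57. Nucleolar genes for building the cytoplasmic ribosome had medians of -0.54, -0.56 and -0.37, with 5, 5 and 0 of 12 called lower. Their change from t1 to t3 was above 0 for 12 of the 12, with a median of 0.21, and none was called, whereas that of the mitochondrial ribosomal protein genes was below 0 for 67 of 69. Replication and cell cycle genes had medians of 0.24, 0.56 and -0.28, and 9 of 10 fell from t1 to t3 in GFP+ cells, with a median of -1.04.

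The fractions also differed in their cell types. At t1, 6 of 7 sensory precursor genes were called higher in GFP+ cells (summed linear level 22023 to 24325, against 4442 to 5106), 4 of 5 mesoderm and muscle genes lower (729 to 930, against 4299 to 4619), 6 of 8 haemocyte genes lower (1009 to 1605, against 6559 to 7649) and 2 of 3 endoderm genes lower with 1 higher (1154 to 1267, against 2299 to 2731). At t3 the same lists gave 6 of 7 higher, and 3 of 5, 3 of 8 and 2 of 3 lower. By then the summed levels of these 4 lists had moved towards each other, at 5868 to 10221 against 3103 to 4676 for the sensory precursor genes, 1323 to 3111 against 2753 to 4137 for the mesoderm genes, 7538 to 11954 against 13991 to 14786 for the haemocyte genes and 1219 to 2083 against 1853 to 2201 for the endoderm genes. The median log2 level of the endoderm genes differed by about as much at t3 (8.34 against 9.39) as at t1 (7.86 against 8.92). The 3 germ line genes, with 1 called lower at t1 and 1 at t3, summed to 70.0 to 76.6 against 139 to 161 at t1 and 61.6 to 83.3 against 107 to 188 at t3. The summed levels of the neuroblast genes overlapped between the fractions. They were 7654 to 9272 against 6728 to 8131 at t1 and 9570 to 13581 against 9516 to 10928 at t3. In the mutant the ranges of the sensory precursor, mesoderm, haemocyte and endoderm genes were 10521 to 12215 against 3213 to 4052, 181 to 257 against 4149 to 4841, 1049 to 1552 against 5926 to 6971 and 639 to 747 against 1795 to 2124. No marker was listed at 0, and the part of these cell types in the results was not tested.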

How the data were processed

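RNA from sorted embryo cells was hybridised to Affymetrix *Drosophila* 2.0 arrays from, per the methods, independent samples. The labels and the methods differ on the rounds of RNA amplification. The authors deposited log2 values normalised with RMA (version not given in the sources used here). Probe sets were read by gene symbol, and no coordinates or sequences are printed. The 183 control probe sets were left out. Probe sets were named from the platform annotation, in which 13647 name 1 gene, 402 several and 4720 none. List genes were matched to current symbols through a gene table. A series table with 1 column per array was used throughout.

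All 18769 probe sets were fitted with limma 3.58.1 in R 4.3.3 (lmFit, contrasts.fit, eBayes) with a mean for each of the 8 groups. A gene was called at a fold of at least 1.5 and an adjusted p of at most 0.01, which is the methods' false discovery rate with the fold limit of the study's text. The fits were tested on simulated data. Precision is limited by the number of arrays, and p-values measure the spread between these samples. The text names up to 8 genes per comparison and direction, taken by size of change from those called whose groups did not overlap, with the highest and lowest of each comparison, *mRpL45*, *tko* and *bonsai*. Other genes named were chosen after their values were seen. The genes and lists were chosen with earlier results of these data known.

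Replicate numbers are shared between fractions. Both fractions were collected in each sorting run, but no source used here ties the numbers to runs. Same-numbered arrays deviated together in the mutant, where each of the 4 correlations of their deviations from the group means was 0.21 to 0.30, and not throughout in the wild type (-0.02 to 0.56). The replicate block changed none of the mutant calls. Alternatives covered the block, scaling, dim probe sets, the variance model, array weights, thresholds, probe sets per gene and the leaving out of single arrays.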

Additional observations from a re-analysis of the deposited data

Results flagged for a closer look

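In 231 groups of 4 arrays of the genes named here, 15 had an array far from the other 3 by Dixon's test, where chance gives about 1 in 20. GFP− cells of wild-type t1 held 6 of them, each in replicate 4: *mRpL54* at 7.76 (others 7.96 to 8.002), *mRpS18C* at 7.93 (8.21 to 8.26), *mRpS22* at 9.97 (10.21 to 10.25), *mRpS23* at 7.87 (8.25 to 8.33) and *mRpS25* at 9.14 (9.39 to 9.44) were low there, and *mRpS5* at 10.53 (10.14 to 10.20) was high. That array also had the lowest median of all 69 genes in its group, 9.01.

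GFP+ cells of t3 held 4, each high in replicate 3, the array that stood apart there: *mRpL43* at 9.09 (8.69 to 8.73), *mRpL54* at 8.50 (7.83 to 7.94), *mRpS5* at 10.40 (10.10 to 10.14) and *mRpS6* at 7.97 (7.51 to 7.58). The remaining 5 lay in GFP+ cells of t2, with *mRpL10* at 7.65 and *mRpL45* at 9.86 in replicate 1 and *mRpL12* at 9.19 in replicate 3, and of the mutant, with *mRpL38* at 9.005 in replicate 4 and *mRpS22* at 10.08 in replicate 2.

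The difference between fractions differed between genotypes for *mRpS5* (0.83, wild type minus mutant) and between ages for *mRpL1* (-0.62, t3 minus t1), by the interaction terms given above. The second was not called with the replicate block (-0.58).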

How the results depend on the processing

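The number of mitochondrial ribosomal protein genes called between fractions at t1, t2, t3 and in the mutant was 0, 9, 19 and 7. Without the fold limit it was 23, 42, 63 and 29. A test against a 1.5-fold difference (treat) called 0 in each. Centring on cytoplasmic ribosomal proteins gave 0, 3, 10 and 1, array weights 1, 9, 35 and 7, and cyclic loess 0, 10, 15 and 13. A spread from the t3 arrays alone gave 0 at t3, and 32 without the GFP+ array of replicate 3. Leaving out single arrays gave 0 to 3, 5 to 9, 12 to 40 and 5 to 10: at t1, 3 without GFP+ replicate 2 or GFP− replicate 4 and 2 without GFP+ replicate 4, at t2, 5 without GFP+ replicate 3, and at t3, 12 without GFP+ replicate 1 or GFP− replicate 2. Without replicate 3 of both t3 fractions, chosen after seeing the data, it was 47.

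For the wild-type minus mutant difference, 1 gene was called (higher). Centring gave 1 lower, treat 0, and single arrays 1 to 2 (2 without wild-type GFP− replicate 4). Between genotypes the counts were 3 in GFP+ and 7 in GFP− cells. Centring, which moved the median of all probe sets to -0.34 and -0.20 and the genes here by the same amounts, gave 2 and 5 called, of which 0 and 2 were higher. Loess gave 4 in GFP− cells, treat 0 and 1, and single arrays 2 to 3 and 5 to 9. For t3 against t1 the counts were 13 and 15. Loess gave 16, with the balance turned to higher, and 25, treat 5 and 4, no fold limit 35 and 34, and single arrays 12 to 15 and 11 to 17. Centring gave 4 higher and 11 lower in GFP+ cells.

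For the t3 minus t1 difference, 1 gene was called. The replicate block gave 0 (*mRpL1* at -0.58, short of the fold limit), treat 0, loess 2, centring 3, array weights 3, no fold limit 2, and single arrays 0 to 4 (4 without GFP+ replicate 3 at t3, 2 without GFP− replicate 3 at t3 or GFP+ replicate 2 at t1). It was 3 with only the groups compared and without GFP+ replicate 3, and 9 without replicate 3 of both t3 fractions. With the replicate block 14 genes were called at t3, against 19, and the count in the other comparisons was as without it. In the wild type the GFP+ array correlated best with the GFP− array of its own number in 9 of 11 pairs, a hint from the data and not the design, the exceptions being replicate 3 at t2 and replicate 2 at t3.

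Uncalled values near 0 changed sign. *mRpL45* under centring read 0.023 at t1, 0.025 at t2, 0.12 in the mutant, -0.10 for wild type minus mutant, and -0.28 and -0.18 between genotypes in GFP+ and GFP− cells (-0.053 in the latter with loess). Without single arrays its wild type minus mutant value was -0.017 to 0.064. *mRpL43*, 0.06 for t3 minus t1, read -0.0011 under centring, -0.0067 with array weights, -0.033 with only the groups compared and without GFP+ replicate 3, -0.033 to 0.11 without single arrays, and -0.11 without replicate 3 of both fractions. Of the values of single genes under alternatives, 1068 kept direction and call, 69 lost the call, 6 gained it and 16 changed sign. The causes were not tested. Leaving out dim probe sets, an intensity trend with robust estimates, an adjusted p of 0.05 and the mean over probe sets changed none of the 10 counts, and any probe set of a gene gave 8 for the 7 in GFP− cells between genotypes.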
